A study of Capra hircus with 18 samples.

Results

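The genes described here are the membrane transporters, pumps and channels of goat blood that were listed in the comparisons of transported goats with goats that were not transported. A gene was taken if its description named a solute carrier, an ATP binding cassette protein, an ATPase or a channel, and left out if the description also named a kinase or phosphatase; SLC26A8 and SLC11A1 were left out by name. This gave 48 of the 1557 genes listed in either comparison, namely 28 solute carriers, 11 channels, 5 ion pumps, 3 ATP binding cassette (ABC) proteins and 1 further ATPase, ATP13A5. Of these, 12 were among the 430 genes of the 30 min comparison and 37 among the 1247 genes of the 180 min comparison, and only SLC1A5 was in both.

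Solute carriers move nutrients, metabolites and ions across membranes by facilitated diffusion or by coupling to an ion gradient. Pumps such as the proton-pumping V-type ATPase spend ATP to build those gradients, and channels let ions flow down them once they open. In blood, these proteins feed activated leukocytes with amino acids, nucleosides and vitamins, release lactate, and set the ion balance of lymphocytes, phagocytes and red cells.

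The animals were intact male Spanish goats, 8 months old, from which feed was withheld overnight in all groups. The control group (7 goats) stayed in pens, 4 goats were transported for 30 min over 50 km, and 7 goats were transported for 180 min over 200 km. RNA came from whole blood, with globin mRNA removed from the libraries, and the same 7 control goats served both comparisons. Goats were handled on more than 1 day, but the labels do not give the day of a goat, so the part of the day in the differences was not tested. Library sizes were 10443023 to 39473244 reads in the control group, 13992574 to 22855051 at 30 min and 11290309 to 34125715 at 180 min. Reads on the listed members made up 0.0207% to 0.0399% of a control library and 0.0325% to 0.0494% of a 30 min library. For the 180 min members the range was 0.0819% to 0.150% in control libraries and 0.134% to 0.377% in transported ones.

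Whole blood mixes cell types, and fewer cells of a type and less RNA per cell cannot be told apart in these values. Markers of blood cells also moved at 180 min. Of 16 neutrophil markers, 4 were listed (CSF3R, LTF, S100A12 and S100A8) and 3 of them rose, and their summed normalized count was 60072 to 182925 in transported and 18725 to 77228 in control goats. Of 14 T cell markers, 6 were listed (CD3D, CD3E, CD3G, CD5, CD6 and LCK) and 3 fell, with sums of 4449 to 9019 after transport and 8064 to 15344 in control goats. Of 8 monocyte markers, 3 were listed (CD14, CD163 and CSF1R) and 2 rose, with sums of 9216 to 31348 and 3052 to 10453. One marker each was listed for NK cells (NKG7, 1992 to 3305 and 1053 to 2252; it rose), B cells (MS4A1, 1635 to 4769 and 3759 to 5196) and platelets (SELP, 0 to 126 and 0 to 10.8). At 30 min, 6 of 10 B cell markers were listed, none passed the test and all had a fitted difference below 0, with sums of 8692 to 12195 in transported and 9103 to 28976 in control goats; the NK cell marker NCR3 had 161 to 196 and 185 to 684. Of 16 neutrophil markers, 1 was listed at 30 min, with a fitted difference above 0, and it did not pass. No red cell or eosinophil marker was listed in either comparison. Blood cell counts of the goats were not analysed here, and the part of cell composition in the members' differences was not tested.

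The values below are normalized counts, that is reads divided by the size factor of the goat, and differences are means of log2(normalized count + 1) in transported minus control goats with their standard error (SE), so they understate the change of low genes. A member rose or fell if its limma p-value, adjusted over every gene of the comparison, was under 0.05. The genes were listed because the authors' own test of the same goats gave a p-value under 0.05, so the tests are not independent evidence of a change. Counts of members are therefore read only against the same share of all listed genes.

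At 30 min none of the 12 members passed the test, in a comparison in which 2.09% of listed genes passed. The differences of 6 members lay above 0 and those of 6 below 0, beside 29.5% above 0 among all listed genes. The median difference was -0.17 for the members and -0.92 for all listed genes. The sign of the members' median turned with scaling. It was -0.33 in edgeR with the deposited size factors, 0.04 with TMM factors and -0.0064 in DESeq2, beside -1.10, -0.66 and -0.75 for listed genes. Without adjustment, limma gave 7 members under 0.05 (46% of listed genes) and the exact two-sided permutation test gave 6 (46.7%), all 6 above 0. DESeq2, run on the reads of the listed genes alone, called 5 (SLC1A5, SLC25A33, SLC40A1 and ATP6V1G1 higher, SCN9A lower) beside 30% of listed genes, and edgeR called none, either with the deposited size factors (5.35% of listed genes) or with TMM factors (6.74%). In no member did the groups separate fully, against 8.14% of listed genes.

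**Figure D1:**
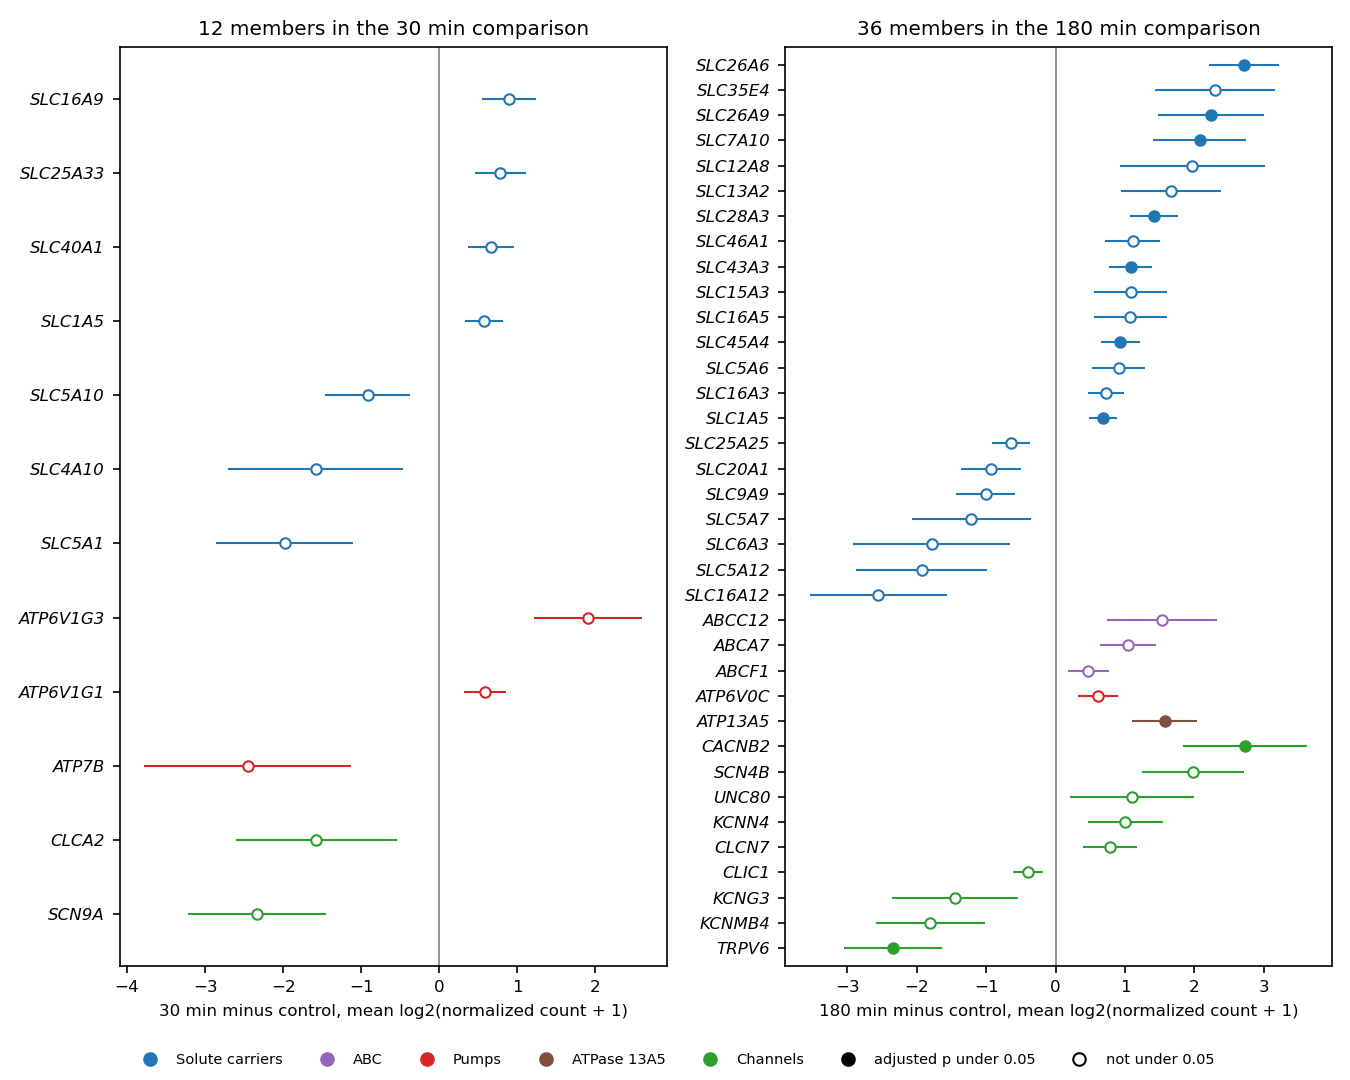
Difference in mean log2(normalized count + 1), transported minus control, with its standard error, for the 12 members of the 30 min comparison (left) and 36 members of the 180 min comparison (right), ordered by family. Filled points passed the adjusted p of 0.05: none at 30 min, and 10 at 180 min, of which TRPV6 is the one below 0.

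Among the solute carriers at 30 min, the amino acid and metal ion carriers were the most abundant. SLC1A5, which brings glutamine and other neutral amino acids into cells, had 207, 351, 400 and 325 normalized counts in the transported goats, and 181, 218 and 240 as the lowest, median and highest of the 7 control goats. The values of 3 transported goats lay above every control goat and that of goat 21 among them, for a difference of 0.58 (SE 0.24; limma adjusted p = 0.103). SLC40A1, ferroportin, the iron exporter of macrophages and gut cells, had 7288, 7183, 3681 and 5340.5 in transported goats and 2620, 3450 and 6179 in control goats. The difference of 0.66 (SE 0.30; limma adjusted p = 0.106) went with overlapping groups, because control goat 3 stood at 6179 and the next control goat at 3675.

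SLC25A33, a mitochondrial carrier of pyrimidine nucleotides, had 128, 129, 203 and 95.6 in transported goats and 44.1, 84.3 and 117 in control goats. Its difference was 0.78 (SE 0.33; limma adjusted p = 0.103), with 3 of 4 transported goats above every control goat. SLC16A9, a carrier of the monocarboxylate family, had 97.1, 91.9, 73.4 and 109 in transported goats and 29.1, 41.4 and 94.6 in control goats, a difference of 0.90 (SE 0.35; limma adjusted p = 0.103). All 4 transported goats lay above the control median in SLC25A33, SLC16A9 and SLC40A1.

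The 3 carriers below 0 were low or spread in the control goats. SLC5A10, a sodium-coupled sugar transporter, had 128, 137, 103 and 111 in transported goats and 88.9, 245 and 630 in control goats, a difference of -0.92 (SE 0.54; limma adjusted p = 0.145). SLC5A1, the sodium-glucose cotransporter of the gut, gave 1 read in all 4 transported goats together and 61 in the control goats, of which goat 7 held 27 and goat 3 held 20. The ratio of scaled reads, control over transported, was 32.0 with a 95% interval of 5.54 to 1286 that covers counting error only, and the difference was -1.98 (SE 0.87; limma adjusted p = 0.104). SLC4A10, a sodium-bicarbonate transporter, was at 0 in every transported goat and in 4 of 7 control goats, with 18 and 27 of its 47 control reads in goats 8 and 3. Its level was at least 8.23-fold lower after transport if the transported group had 3 reads in all, and at least 3.94-fold without control goat 3, while limma gave a difference of -1.58 (SE 1.12; adjusted p = 0.197), which was -1.02 without goat 3 and -0.99 without goat 8.

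Of the pumps at 30 min, ATP6V1G1, a subunit of the V-type proton pump, was the most abundant of the 12 members by length, at 165 ± 41.7 FPKM (SD, n = 4) in transported and 106 ± 22.7 (SD, n = 7) in control goats. FPKM are reads divided by the gene length of the table and by library size, and that length is 357 bases here. Its normalized counts were 1061, 1118, 1380 and 743 in transported goats and 496, 776 and 873 in control goats, a difference of 0.58 (SE 0.27; limma adjusted p = 0.109). ATP6V1G3, another gene for the same G subunit of that pump, had 10, 2, 14 and 0 reads in the transported goats and 3 reads in all control goats. The ratio of scaled reads was 16.5 (95% interval 5.06 to 85.2, counting error only), from 9.37 without goat 24 to 40.5 without control goat 1, and the difference of 1.90 (SE 0.69; limma adjusted p = 0.103) was the one that passed the test when goat 27, which had no read, was left out (2.64; limma adjusted p = 0.0430); without goat 24 it was 1.22. ATP7B, a copper pump, was at 0 in 3 transported goats and at 11.2 in goat 22, and had 0, 9.46 and 93.3 in control goats, a difference of -2.45 (SE 1.32; limma adjusted p = 0.126).

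Both channels of the 30 min comparison were at 0 in all 4 transported goats. SCN9A, a voltage-gated sodium channel of sensory neurons, had 58 reads in the control goats and none in goats 8 and 9. It was at least 10.2-fold lower after transport at the same floor of 3 reads and at least 6.70-fold without control goat 3, with a difference of -2.34 (SE 0.89; limma adjusted p = 0.103). CLCA2, a calcium-activated chloride channel regulator, had 38 control reads, 25 of them in goat 8. Its level was at least 6.65-fold lower, or at least 2.44-fold without goat 8, and the difference was -1.58 (SE 1.03; limma adjusted p = 0.172), or -0.91 without that goat. SLC5A1, SLC4A10, SCN9A and CLCA2 had 3 reads or fewer in every transported goat, as did 22.6% of listed genes, and most of their control reads were in goats 3, 7 and 8.

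**Figure D2:**
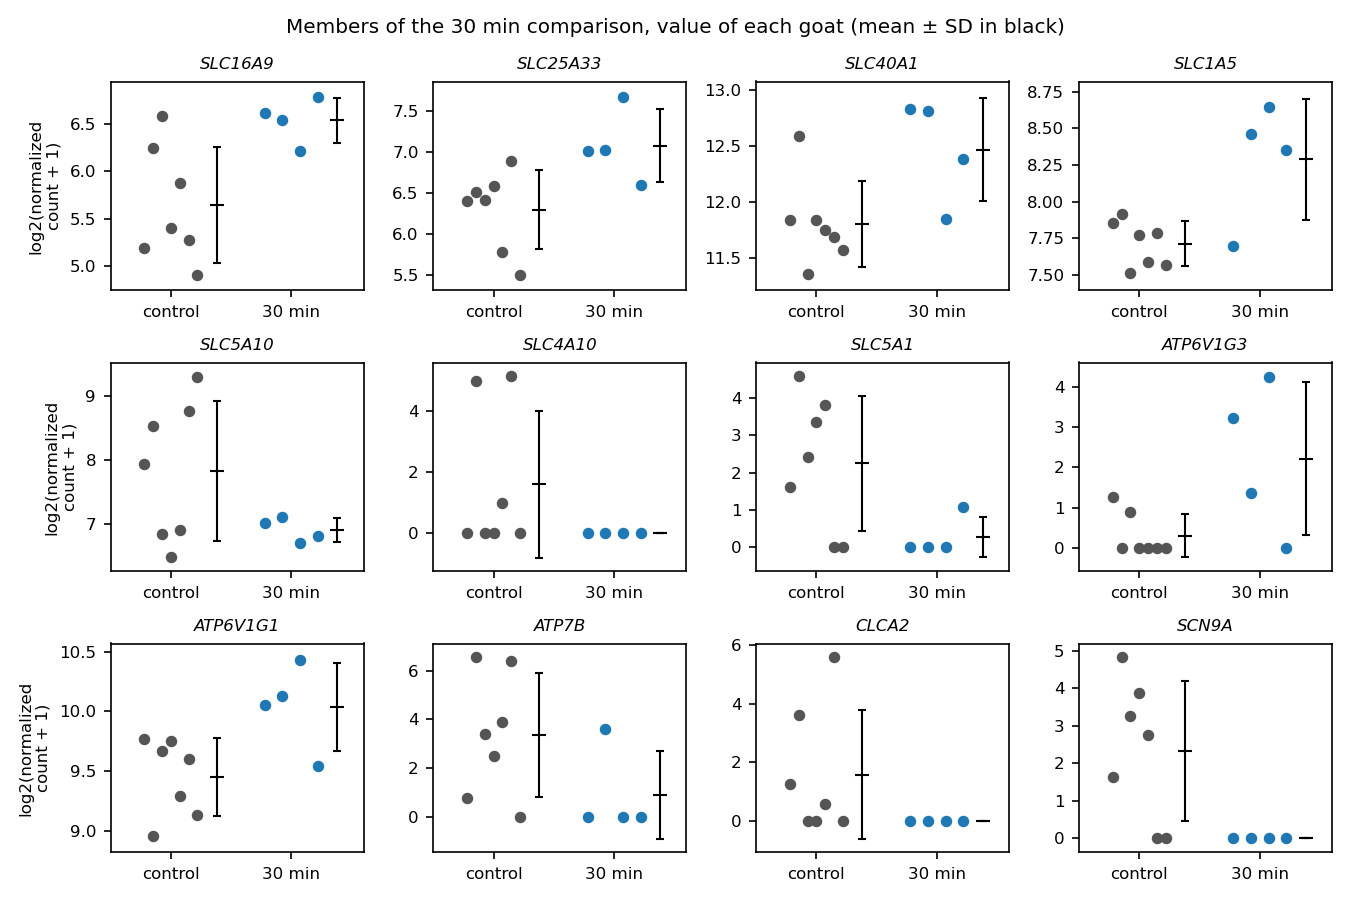
Log2(normalized count + 1) of the 12 members of the 30 min comparison in each of 7 control goats (grey) and 4 transported goats (blue), with the mean and SD of each group in black; every panel has its own scale. SLC4A10, CLCA2 and SCN9A lie at 0 in all 4 transported goats, and the groups overlap in every panel.

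At 180 min 11 of 37 members passed the test, 10 higher and 1 lower, while 23.7% of listed genes did (16.6% higher and 7.14% lower). Those that rose included SLC26A6, SLC28A3, SLC43A3, SLC1A5, SLC45A4, SLC7A10, SLC26A9, ATP13A5 and CACNB2, and TRPV6 fell. The differences of 26 members were above 0, against 59.4% of listed genes, with a median of 0.93 for the members and 0.68 for all listed genes. In 4 members, SLC26A6, SLC1A5 and SLC35E4 among them, no transported goat was as low as any control goat, while groups did not overlap in 3.05% of listed genes. Without adjustment 23 members were under 0.05 by limma (62.4% of listed genes) and 23 by the exact two-sided permutation test (64%), 17 higher and 6 lower in both.

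The split of calls depended on scaling and on single goats. With the deposited size factors edgeR called 17 members higher and 2 lower (53.5% of listed genes). These included SLC13A2, SLC15A3, SLC16A3, SLC16A5, SLC35E4, SLC46A1, ABCA7 and SCN4B higher and SLC5A12 lower, none of which passed in limma, while SLC7A10 was not called. The median difference of all listed genes was 0.77 in that fit and 0.33 in edgeR with TMM factors, which rest on the listed genes alone, a shift of -0.44 within 1 model. It was 0.32 in DESeq2 with its own factors, against 0.68 in limma, where the model differed too. The median of the members was 0.93 in limma, 0.92 in edgeR with the deposited size factors, 0.40 with TMM factors and 0.57 in DESeq2. The called members were then 7 higher and 6 lower (edgeR with TMM, 39.5% of listed genes called) or 7 higher and 9 lower (DESeq2, 50.6%). In all these fits 6 members were called in 1 direction, SLC26A6, SLC28A3, SLC43A3, SLC26A9 and CACNB2 higher and TRPV6 lower. The adjusted p-values of the 11 called members lay between 0.0133 and 0.0491, and leaving out 1 goat left 1 to 14 members called. The count was 1 without transported goat 15 or 16 or control goat 4, and 2 without control goat 1 or 6. It was 4 without control goat 8, 5 without goat 11, 6 without control goat 7 and 7 without goat 17. The share of listed genes called in these fits is not given here, so nothing is read from these counts about the members alone. SLC26A6 was called in all 14 of these fits, SLC28A3 in 10, and the other 9 called members in 2 to 7. Leaving out 1 goat also brought a call to 10 members that did not pass with all goats: SLC46A1, SLC16A3, SLC35E4, SLC5A6, ABCA7, SCN4B and UNC80 higher, and SLC9A9, SLC16A12 and KCNMB4 lower. With a pseudocount of 10 in place of 1, TRPV6, SLC26A9 and ATP13A5 did not pass, and with 0.1 CACNB2 and SLC7A10 did not.

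Of the 22 solute carriers, 15 had differences above 0 under every scaling, beside 59.4% of listed genes in limma. In limma 7 rose and none fell, beside 16.6% and 7.14% of listed genes. Calls in edgeR were 12 higher and 1 lower on the deposited scale, beside 53.5% of listed genes called. They were 5 and 4 in edgeR with TMM factors (39.5% of listed genes) and 5 and 6 in DESeq2 (50.6%). SLC26A6, an exchanger of chloride for bicarbonate, oxalate and other anions on chromosome 22 (51319014 to 51329356, plus strand, in the coordinates of the deposited table), had 227, 438 and 921 in control goats as the lowest, median and highest normalized count, and 1550, 3019 and 15648 in transported goats. No transported goat reached down to a control goat, and the mean rose 8.33-fold, or 4.96-fold without goat 10. The difference was 2.72 (SE 0.50; limma adjusted p = 0.0133), and 2.34 (SE 0.39; limma adjusted p = 0.00784) without that goat, which held the value of 15648. By length SLC26A6 went from 10.9 ± 5.42 FPKM in the control group to 93.7 ± 104 (SD, n = 7 each).

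SLC26A9, a chloride transporter of the same family (chromosome 16, 3030677 to 3049995, minus strand), had no read in any control goat and 66 reads in transported goats, with 2 of 7 at 0. The lowest, median and highest values after transport were 0, 4.26 and 78.3, and goat 10 held 81.3% of the sum. It was at least 18.5-fold higher at a floor of 3 reads over the control group, with a difference of 2.24 (SE 0.76; limma adjusted p = 0.0491). Without goat 10 it was at least 6.63-fold higher and the difference was 1.57 (limma adjusted p = 0.0396). It passed in 4 of the 14 fits without 1 goat, and not with a pseudocount of 10 (0.75; limma adjusted p = 0.1002). SLC12A8, of the cation-chloride cotransporter family, had 0, 4.51 and 17.7 in control and 0, 19.3 and 158 in transported goats, a difference of 1.97 (SE 1.04; limma adjusted p = 0.101). The other ion carriers had differences below 0 that did not pass. SLC9A9, a sodium-proton exchanger of endosomes, had 63.3, 236 and 274 in control and 34, 119 and 185 in transported goats (difference -1.01, SE 0.43; limma adjusted p = 0.0691). SLC20A1, a sodium-phosphate cotransporter, had 1113, 1604 and 2951 in control and 224, 1253 and 1757 in transported goats (difference -0.93, SE 0.43; limma adjusted p = 0.0780), with the 224 in goat 10, and without that goat the difference was -0.58. Both were called lower by edgeR with TMM factors and by DESeq2.

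Of the 4 members in amino acid carrier families, 3 rose, beside 16.6% of listed genes. With edgeR and TMM factors and with DESeq2, SLC43A3 was the 1 member of these families called higher. These fits called 39.5% and 50.6% of listed genes in either direction. SLC43A3 (chromosome 15, 2595757 to 2616449, plus strand), whose family carries large neutral amino acids and which itself is known for purine nucleobase transport, had 2506, 4528 and 7822 in control and 6355, 9709 and 13054 in transported goats. The mean rose 2.02-fold, with 5 of 7 transported goats above every control goat and a difference of 1.08 (SE 0.31; limma adjusted p = 0.0400), against 0.64 in edgeR with TMM factors and 0.63 in DESeq2. It passed in 7 of 14 limma fits without 1 goat. SLC7A10, an exchanger of small neutral amino acids (chromosome 18, 44703422 to 44719004, minus strand), had 0, 4.51 and 10.8 in control and 6.40, 14.5 and 85.4 in transported goats, a difference of 2.08 (SE 0.67; limma adjusted p = 0.0470), which was 1.70 (limma adjusted p = 0.0557) without goat 10. It passed in 2 of the 14 fits that left out 1 goat, and its adjusted p was 0.0531 in edgeR with the deposited size factors, 0.170 with TMM factors and 0.0776 in DESeq2. SLC6A3, the dopamine transporter, had 195 reads in control goats, with 42.2% of the normalized counts of both groups in control goat 3, and 31 reads in transported goats (difference -1.79, SE 1.14; limma adjusted p = 0.153); DESeq2 called it lower (-3.36, adjusted p = 0.0206).

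SLC1A5 was the 1 gene of both comparisons. It lies on chromosome 18 (54906406 to 54916037, minus strand). In the 180 min comparison it had 199, 228 and 263 in control and 273, 400 and 508 in transported goats, so that the groups did not overlap, and it rose by 0.68 (SE 0.20; limma adjusted p = 0.0411). With TMM factors its edgeR estimate was 0.28 (adjusted p = 0.312) and with DESeq2 0.27 (adjusted p = 0.230), and it passed in 5 of the 14 limma fits without 1 goat. The 2 comparisons share their control goats, so they do not repeat each other. On 1 scale for all 18 goats, with reads divided by the library size behind the FPKM, the means were 242 ± 25 in the control group (SD, n = 7), 384 ± 100.2 at 30 min (SD, n = 4) and 409 ± 91.9 at 180 min (SD, n = 7). The 180 min and 30 min groups overlapped, at 299 to 575 and 247 to 485, and differed by 0.10 (SE 0.28; 95% interval -0.48 to 0.69; limma adjusted p = 0.994 over the 120 genes of both comparisons). None of those 120 genes passed this test, and 6 (5%) were under an unadjusted p of 0.05; edgeR also gave SLC1A5 an adjusted p of 0.965. The interval leaves room for a difference of either sign.

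**Figure D3:**
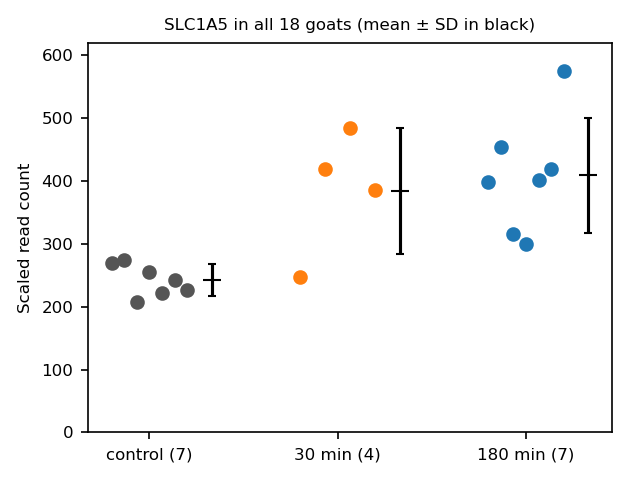
Reads on SLC1A5 in each of the 18 goats, scaled by the library size behind the FPKM, with the mean and SD of each group in black. The 7 control goats lie between 208 and 274; 3 of the 4 goats at 30 min and all 7 goats at 180 min lie above them.

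Both nucleoside and vitamin carriers of the SLC28 and SLC46 families were above 0, beside 59.4% of listed genes. SLC28A3, a concentrative nucleoside transporter on chromosome 8 (77281156 to 77345656, minus strand), had 520, 745 and 1083 in control and 1028, 2071 and 5492 in transported goats. It rose 3-fold in the mean, with 6 of 7 transported goats above every control goat and a difference of 1.42 (SE 0.35; limma adjusted p = 0.0296). SLC46A1, the proton-coupled folate transporter, had 41.3, 59.2 and 118 in control and 69.9, 109 and 391 in transported goats, and its difference of 1.11 (SE 0.40; limma adjusted p = 0.0540) did not pass. SLC5A6, the sodium-dependent carrier of biotin and pantothenate, had 68.0, 118 and 308 in control and 178, 179 and 564 in transported goats (difference 0.91, SE 0.39; limma adjusted p = 0.0691). All 7 transported goats lay above the control median in each of these 3 genes.

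None of the 5 carriers of monocarboxylates, dicarboxylates and peptides in the SLC13, SLC15 and SLC16 families passed in limma, beside 23.7% of listed genes. EdgeR with the deposited size factors called SLC13A2, SLC15A3, SLC16A3 and SLC16A5 higher, beside 53.5% of listed genes called. With TMM factors it called SLC13A2 higher (adjusted p = 0.0413), beside 39.5% called. DESeq2 called SLC16A12 lower (adjusted p = 0.0349) and none of the 5 higher, beside 50.6% called. SLC16A3, the lactate exporter of glycolytic cells, had 1083, 1650 and 2923 in control and 2154, 2797 and 4004 in transported goats, with a difference of 0.72 (SE 0.26; limma adjusted p = 0.0527) and an exact permutation p of 0.00816 (two-sided, unadjusted). SLC15A3, a lysosomal carrier of peptides and histidine, had 756, 1645 and 2771 in control and 1472, 2390 and 18077 in transported goats. Its difference of 1.08 (SE 0.53; limma adjusted p = 0.0877) was 0.66 without goat 10. SLC16A5, of the monocarboxylate family, went the same way, with 54.9, 110 and 236 in control and 104, 185 and 1204 in transported goats and a difference of 1.08 (SE 0.53; limma adjusted p = 0.0870) that was 0.70 without goat 10.

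SLC13A2, a carrier of citrate and other dicarboxylates, was at 0 in all control goats and had 39 reads in transported goats, 76.9% of its normalized count being in goat 10. Its level was at least 11-fold higher at the floor of 3 reads, and the difference was 1.66 (SE 0.72; limma adjusted p = 0.0719). Without goat 10 these were at least 4.82-fold and 1.04 (limma adjusted p = 0.0877). It lies 52124 bases from SLC46A1 on chromosome 19. SLC16A12, a creatine transporter, had 1.19, 47.6 and 72.1 in control and 0, 3.31 and 34.1 in transported goats. All 7 transported goats were below the control median, and the difference was -2.55 (SE 0.99; limma adjusted p = 0.0598).

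The remaining solute carriers belong to the sugar, sodium-coupled, mitochondrial and nucleotide sugar families. SLC45A4, of a family of proton-coupled sugar carriers (chromosome 14, 79407091 to 79449679, minus strand), rose, with 447, 653 and 1012 in control and 808, 1420 and 2012 in transported goats and a difference of 0.93 (SE 0.28; limma adjusted p = 0.0411). EdgeR with TMM factors gave 0.56 (adjusted p = 0.0533) and DESeq2 0.57 (adjusted p = 0.0326), and it passed in 5 of 14 limma fits that left out 1 goat. SLC35E4, an orphan of the nucleotide sugar carrier family, had 0, 55.6 and 93.9 in control and 97.2, 129 and 448 in transported goats. Its groups did not overlap, yet the difference of 2.30 (SE 0.86) had a limma adjusted p of 0.0571. Control goat 9 was at 0, and without it the difference was 1.48 and the adjusted p 0.0414. SLC25A25, a calcium-regulated mitochondrial carrier of ATP-magnesium and phosphate, had 253, 470 and 519 in control and 152, 275 and 344 in transported goats (difference -0.64, SE 0.27; limma adjusted p = 0.0685). EdgeR with TMM factors and DESeq2 called it lower. SLC5A12, a sodium-coupled lactate carrier, had 3 reads in transported and 95 in control goats, a control over transported ratio of scaled reads of 37.6 (95% interval 12.5 to 185, counting error only; 21 without control goat 9 to 88.3 without goat 13), and control goat 8 held 56.6% of its normalized count (difference -1.93, SE 0.94; limma adjusted p = 0.0863; -1.28 without that goat). EdgeR under both scalings and DESeq2 called it lower. SLC5A7, the high-affinity choline transporter, had 5 reads in transported and 47 in control goats, with 57.1% in control goat 3 (difference -1.21, SE 0.86; limma adjusted p = 0.191). Its difference was -0.60 without control goat 3 and -0.71 without control goat 8.

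All 3 ABC proteins had differences above 0 under every scaling, beside 59.4% of listed genes in limma. None of the 3 passed in limma, beside 23.7% of listed genes. EdgeR with the deposited size factors called ABCA7 higher (adjusted p = 0.0411), beside 53.5% of listed genes called in that fit. ABCA7, a lipid transporter of phagocytes and brain, had 448, 678 and 1691 in control and 642, 1567 and 3796 in transported goats (difference 1.04, SE 0.41; limma adjusted p = 0.0607). ABCF1, which has no membrane domain and acts in translation, had 945, 1171 and 1371 in control and 969, 1500 and 3590 in transported goats (difference 0.47, SE 0.29; limma adjusted p = 0.143; 0.28 without goat 10). ABCC12, of the multidrug resistance protein group, had 7 reads in control and 55 in transported goats, 76.7% of its normalized count being in goat 10 (difference 1.54, SE 0.79; limma adjusted p = 0.0954), and without that goat the difference was 0.87.

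Among the ATPases, ATP6V0C, the membrane subunit of the V-type proton pump through which protons pass, had 509, 761 and 1420 in control and 851, 1145 and 1988 in transported goats (difference 0.61, SE 0.29; limma adjusted p = 0.0817). A listed gene without a name overlaps its span on the same strand, with a difference of 0.80, and whether these genes share reads was not tested. ATP13A5, a P-type ATPase (chromosome 1, 73775453 to 73891548, plus strand), had 1 read in control and 31 in transported goats and rose by 1.57 (SE 0.47; limma adjusted p = 0.0411). Its ratio of scaled reads was 26.1 (95% interval 4.35 to 1065, counting error only), with 2 of 7 transported goats at 0. It did not pass in DESeq2 (adjusted p = 0.126) or with a pseudocount of 10 in limma (0.36, adjusted p = 0.115), and it passed in 6 of 14 fits that left out 1 goat.

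**Figure D4:**
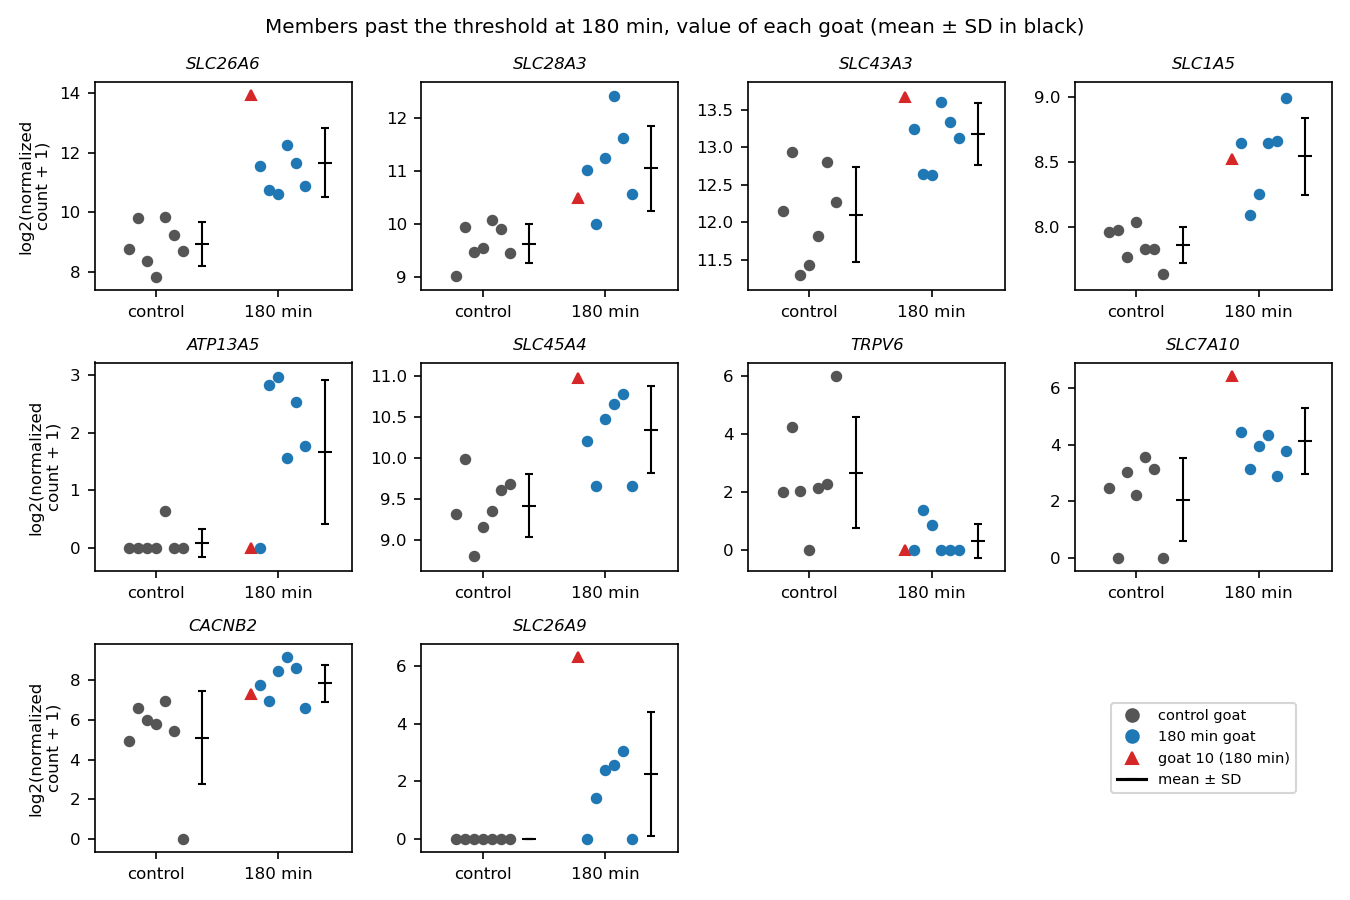
Log2(normalized count + 1) of 10 members that passed the test at 180 min, in each of 7 control goats (grey) and 7 transported goats (blue, goat 10 as a red triangle), with the mean and SD of each group in black; every panel has its own scale. SLC26A6 and SLC1A5 separate fully, ATP13A5, SLC26A9 and TRPV6 lie near 0 in one group, and goat 10 is highest of its group in SLC26A6, SLC43A3, SLC45A4, SLC7A10 and SLC26A9.

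Channels were split, 5 above and 4 below 0 (4 and 5 with edgeR, where UNC80 changed sign). In limma 1 of the 9 passed in each direction, beside 16.6% of listed genes higher and 7.14% lower. EdgeR with the deposited size factors called CACNB2 and SCN4B higher and TRPV6 lower (53.5% of listed genes called). With TMM factors it called CACNB2 higher and CLIC1 and TRPV6 lower (39.5%). DESeq2 called CACNB2 and SCN4B higher and CLIC1, KCNG3 and TRPV6 lower (50.6%). CACNB2, the beta 2 subunit that brings voltage-gated calcium channels to the membrane, lies on chromosome 13 (32057993 to 32333809, plus strand) and had 0, 55.5 and 125 in control and 97.2, 218 and 582 in transported goats. The mean rose 4.67-fold, 5 of 7 transported goats were above every control goat, and the difference was 2.73 (SE 0.89; limma adjusted p = 0.0470). Control goat 9 had no read, and without it the difference was 1.88. EdgeR with TMM factors gave 1.80 and DESeq2 1.81. CACNB2 passed in 5 of 14 limma fits without 1 goat, and not with a pseudocount of 0.1 (adjusted p = 0.0735). TRPV6, a calcium-selective epithelial channel on chromosome 4 (14425210 to 14441845, plus strand), had 98 reads in control and 4 in transported goats. Values were 0, 3.40 and 63.3 in control goats and 0, 0 and 1.66 in transported ones, and it fell by 2.35 (SE 0.71; limma adjusted p = 0.0411). When 1 goat was left out, the difference lay between -2.79 and -1.79, with a limma adjusted p of up to 0.0697, and it passed in 6 of 14 fits. With a pseudocount of 10 it was -0.81 (limma adjusted p = 0.0721). Control goat 9 held 65.2% of its normalized count.

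The other 7 channel genes did not pass in limma. SCN4B, a sodium channel beta subunit, had 8 reads in control and 76 in transported goats, 66.4% of its normalized count in goat 10 (difference 1.98, SE 0.74; limma adjusted p = 0.0561). KCNN4, the calcium-activated potassium channel of lymphocytes and red cells, had 10.2, 24.8 and 71.6 in control and 21, 49.7 and 229 in transported goats (difference 1.01, SE 0.54; limma adjusted p = 0.106). The potassium channel subunits KCNMB4 and KCNG3 had 80 and 98 reads in control and 21 and 13 in transported goats, with control goat 9 holding 48.1% and 59.3% of their normalized counts (differences -1.80, SE 0.79, and -1.45, SE 0.91; limma adjusted p = 0.0722 and 0.148). Without that goat the difference of KCNG3 was -0.83.

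The chloride channel genes CLCN7 and CLIC1 were abundant in all goats. CLCN7, the chloride-proton exchanger of lysosomes, had 564, 707 and 1722 in control and 956, 1171 and 4821 in transported goats, and its difference of 0.78 (SE 0.39; limma adjusted p = 0.0897) was 0.50 without goat 10. CLIC1, a small intracellular protein with channel activity, was the most abundant of the 37 members by length, at 245 ± 60.8 FPKM in the control and 190 ± 37.9 in the transported group (SD, n = 7 each). All 7 transported goats lay below the control median, at 2058 to 3255 against 2492 to 4622, for a difference of -0.40 (SE 0.21; limma adjusted p = 0.102); edgeR with TMM factors gave -0.79 (adjusted p = 0.0307). UNC80, part of the sodium leak channel complex, had 31 reads in transported and 30 in control goats, all 30 in goat 8. Its difference of 1.10 (SE 0.89, limma adjusted p = 0.245) turned to -1.03 with edgeR and the deposited size factors (adjusted p = 0.519) and to -1.29 with TMM factors (adjusted p = 0.433). In DESeq2 it was 3.88 (adjusted p = 0.0628), although the ratio of scaled reads, transported over control, was 0.87. DESeq2 ran with its defaults, which replace outlying counts in groups of this size, so the 3.88 need not reflect the 30 reads of goat 8. Without control goat 8 the limma difference was 1.94 and passed (adjusted p = 0.0387).

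Single goats weighed on the members at 180 min. Goat 10 was highest of the 7 transported goats in 18 of 37 members (48.6%), beside 36.8% of all listed genes, and it had the smallest transported library, 11290309 reads. It also had the highest summed neutrophil markers (182925) and the lowest summed T cell markers (4449) of its group. Without it 26 members stayed above 0, the median fell from 0.93 to 0.70, and 11 members passed the test, 10 of them the same, with SLC7A10 lost and SLC16A3 gained. Shares of listed genes above 0 and called without goat 10 are not given here. Nothing is therefore read from these counts about the members alone. One goat held over 50% of the summed normalized count in 10 of 37 members, beside 14.9% of listed genes, and 11 members had a mean under 10, beside 19.3%. At 30 min these numbers were 3 and 5 of 12, beside 19.3% and 26.3%. Among members with a mean of at least 10, 20 were above and 6 below 0 at 180 min, and 5 above and 2 below at 30 min. All listed genes, without that filter, had 59.4% above 0 at 180 min and 29.5% at 30 min. The share among listed genes with such a mean is not given here, so nothing is read from these splits. In the RefSeq annotation, FAM83G overlaps SLC5A10, HRASLS overlaps ATP13A5, lncRNA genes overlap UNC80, SLC12A8 and SLC16A12, and pseudogenes overlap SLC4A10, SLC9A9 and KCNMB4. These are overlaps of whole gene spans, and exons were not compared. Whether reads were counted by strand is not given in the sources used here, and whether such pairs share reads was not tested.

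**Figure D5:**
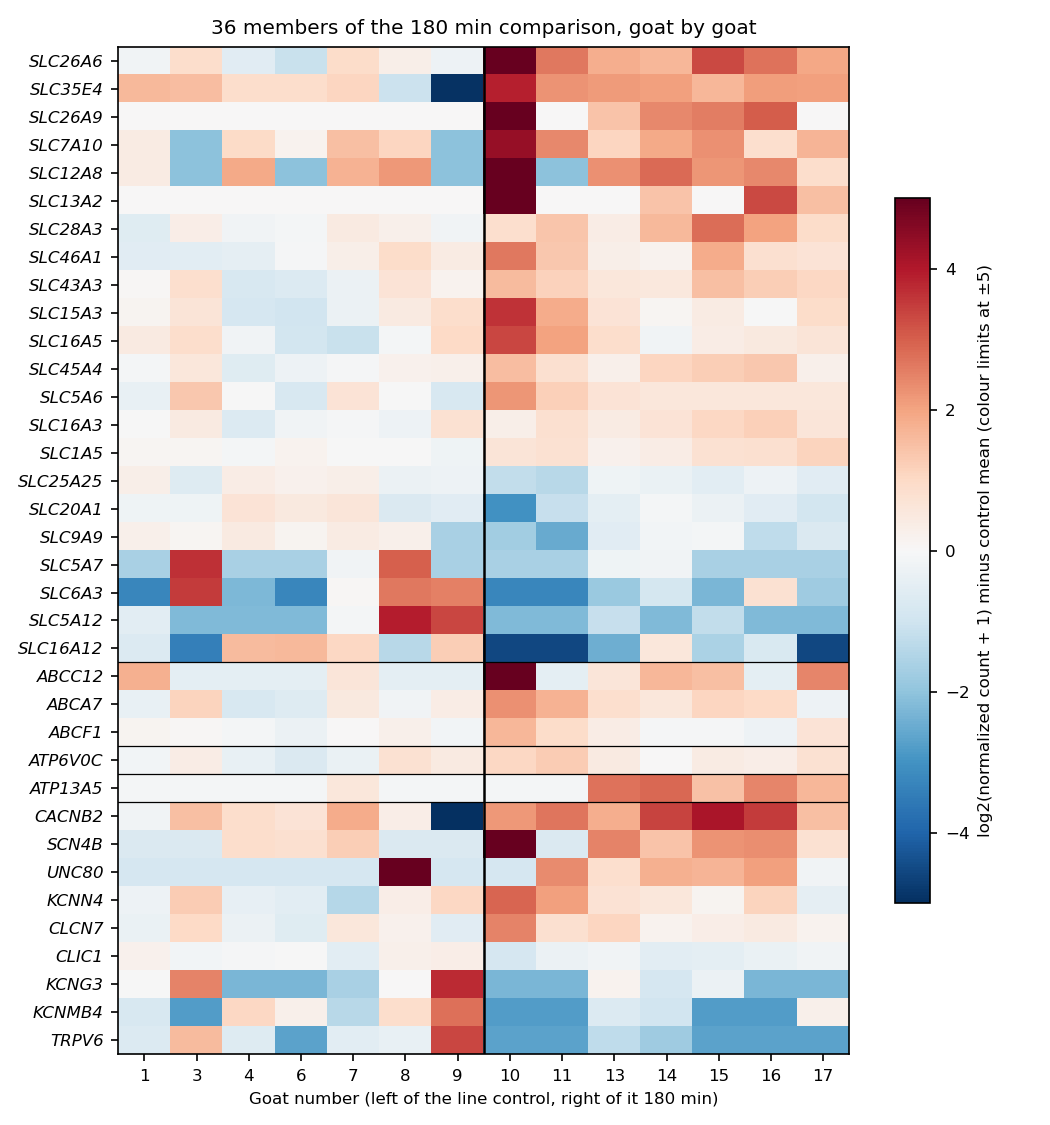
Log2(normalized count + 1) of 36 members in each goat of the 180 min comparison, minus the mean of the 7 control goats, with families separated by lines (solute carriers, ABC proteins, pumps, ATP13A5, channels) and colours limited at 5 in either direction. Goat 10 is the strongest red in SLC26A6, SLC26A9, SLC12A8, SLC13A2, ABCC12 and SCN4B. The low genes SLC5A7, SLC5A12, KCNG3 and TRPV6 are red in a few control goats, and UNC80 in control goat 8 alone.

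Other membrane transport genes, taken by gene name prefix because their descriptions lack the words of the rule, were few. At 30 min 4 were listed and none passed the test, beside 2.09% of listed genes. STEAP4, a metalloreductase, had 3559 to 8880 in transported and 1731 to 4196 in control goats, ORAI2, a store-operated calcium channel subunit, 166 to 251 and 248 to 551, RHCG, an ammonia transporter, 0 to 1.66 and 0 to 19.4, and UCP3, a mitochondrial uncoupling protein, 0 in every transported goat and 0 to 11.4 in control goats. At 180 min 9 were listed and 4 passed, beside 23.7% of listed genes; with so few genes nothing is read from this count. MFSD10 rose by 0.70 (SE 0.24; limma adjusted p = 0.0491), ANO10, of the anoctamin family, by 1.15 (SE 0.40; limma adjusted p = 0.0491), and GABRE, a GABA receptor subunit, by 2.65 (SE 0.74; limma adjusted p = 0.0385). UCP1, the uncoupling protein of brown fat, fell by 2.64 (SE 0.65; limma adjusted p = 0.0296). AQP9, a water and glycerol channel of neutrophils, had 163 to 740 in transported and 92.3 to 202 in control goats (limma adjusted p = 0.0628), and STEAP4, BEST3, TTYH2 and XKR6 did not pass.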

How the data were processed

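Blood RNA of 18 goats (7 control, 4 at 30 min, 7 at 180 min) had been sequenced as 1 library per goat, so replicates are animals and p-values measure the spread between goats. The authors collected blood in PAXgene tubes, removed globin mRNA, made poly-T selected libraries, cleaned reads with fastp and mapped them with HISAT2; the counting tool, its use of strand and the genome build are not given in the sources used here. The authors deposited 1 table per comparison, each with whole-number read counts per gene and goat. The authors also deposited a normalized count per goat, a signal equal to the count divided by 1 size factor per goat, computed for each table separately. The FPKM deposited by the authors are counts over gene length and library size, from which the library sizes given here were computed. Their columns of log2 fold changes, p-values and adjusted p-values were not used, except to see that every listed gene had a p-value under 0.05.

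Each whole table was tested with limma 3.58.1 (lmFit and eBayes, two-sided, R 4.3.3) on log2(normalized count + 1), with Benjamini-Hochberg adjustment over all genes of the table and a threshold of 0.05. Because a table of called genes holds no unchanged genes for TMM factors or dispersions, edgeR 4.0.16 (quasi-likelihood) and DESeq2 1.42.0 on the counts were alternatives. Adjusted p-values are over listed genes only and are no false discovery rate over the transcriptome. Exact two-sided permutation tests went over 330 splits at 30 min and 3432 at 180 min, with smallest possible p-values of 0.00303 and 0.000583. For SLC1A5 all 18 goats were fitted on 1 scale of library sizes, since the tables were normalized separately. No day term was fitted, because the labels give no day.

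Other alternatives were pseudocounts of 0.1 and 10, a mean normalized count of at least 10, library-size scaling, no adjustment, and leaving out each goat. Where a group had no reads, fold bounds assume 3 reads over that group. Intervals of read ratios are exact 95% intervals for Poisson counts; they and the bounds cover counting error only. The scripts were tested on simulated data. The text names members listed in both tables, the 3 smallest limma p-values per table in each group of members (solute carriers split by SLC family number into substrate classes, channels split by ion, pumps, ABC proteins, ATP13A5), the 3 highest mean FPKM per table, and called members without overlap (12 members at 30 min, 32 at 180 min); the other 5 are named after their values were seen. One of the members and 1 marker gene are left in the counts but are not reported here by name or value, nor drawn. Members and gene lists were chosen with earlier results of these data known. Of the 48 names, 47 matched a RefSeq symbol; the RefSeq table was used for names and overlaps only. No sequences were used. Figures were drawn with matplotlib 3.10.9 (Python 3.11.15, pandas 2.3.3, numpy 2.4.6, scipy 1.17.1).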

Additional observations from a re-analysis of the deposited data

Results flagged for a closer look

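The highest or lowest goat stood apart from the rest of its group (Dixon's test at the 95% level) in 12 of 98 groups of 4 or 7 goats. Chance gives about 1 in 20 where values are not tied. The 98 include 3 transported groups at 30 min and 2 control groups at 180 min with every goat at 0, which could not be flagged. The 12 of 98 is therefore not compared with that rate. The test was made on log2(normalized count + 1), while the values given here are normalized counts. Goat 10 of the 180 min group did so with high normalized counts of SLC35E4 (448, the others 97.2 to 144), CLCN7 (4821, the others 956 to 1788) and SLC5A6 (564, the others 178 to 277), and with a low one of SLC20A1 (224, the others 838 to 1757). Control goat 9 was low in CACNB2 (0, the others 30 to 125), SLC35E4 (0, the others 13.7 to 93.9) and SLC9A9 (63.3, the others 209 to 274). Control goat 3 was high in SLC40A1 (6179, the others 2620 to 3675). In the low genes, 1 goat had reads and the rest of its group had none: control goat 8 in UNC80 (58.9), control goat 7 in ATP13A5 (0.566), goat 27 of the 30 min group in SLC5A1 (1.1) and goat 22 of the 30 min group in ATP7B (11.2). Dixon's ratio is 1 in such a group whatever the value, so the rate of 1 in 20 does not apply to these flags. No explanation was tested.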

How the results depend on the processing

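At 30 min the count of called members was 0 in the main analysis (2.09% of listed genes) and 5 with DESeq2 (30%). It was 7 with unadjusted p-values (46%), 6 with the exact permutation test (46.7%), and 0 to 1 when each goat was left out (0% to 4.88%). At 180 min it was 11 (23.7% of listed genes), against 19 with edgeR and the deposited size factors (53.5%). EdgeR with TMM factors called 7 higher and 6 lower (39.5%), and DESeq2 7 higher and 9 lower (50.6%). The 180 min count was 23 with unadjusted p-values (62.4%), 23 with the exact permutation test (64%) and 1 to 14 when each goat was left out. Library-size scaling kept the same 11 called, and pseudocounts of 0.1 and 10 and the filter on a mean of at least 10 gave 9, 13 and 11. That filter left out the 11 members with a mean under 10, so its count is not comparable with the main one. For these settings and the fits without 1 goat, the 180 min share of listed genes called is not given here. Nothing is therefore read from these counts about the members alone. The SLC1A5 difference between 180 min and 30 min (0.10) ranged from -0.095 without goat 21, where its sign turned, to 0.23 without goat 24. UNC80 turned to -1.03 with edgeR and the deposited size factors and to -1.29 with TMM factors; no other member changed sign. The causes were not tested. Low read numbers limit the 5 members at 30 min and 11 at 180 min with a mean under 10. No paired analysis was possible because goat numbers differ between the groups.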
